A study of Mus musculus with 6 samples.

Results

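The genes described here are 10 components of epithelial cell-cell junctions, Cdh1, Cdh3, Epcam, Cldn1, Cldn3, Cldn4, Cldn7, Ocln, Tjp1 and F11r. They were chosen by symbol as genes of adherens and tight junctions, and each matched 1 Ensembl gene among the 41388 in the count files. All 10 were among the 12192 genes counted as expressed, that is, with over 1 CPM, the usual scaling of counts to the size of the library, in at least 3 samples. The samples were cells sorted from mammary tumors of female MMTV-PyMT mice (strain label FVB/N-TgN(MMTVPyVT)634Mul/J), in which a mouse mammary tumor virus promoter drives the polyoma middle T oncogene. Both groups therefore carry the transgene. Tumor initiating cells (TICs) were CD45- cells positive for CD24 and CD90, and the comparison group of non-CD24+CD90+ tumor cells, here called non-TICs, held CD45- cells negative for either marker or for both. Each group had 3 samples, each a pool of 4 cell sorts, and the mice were 12 weeks old. The series' design text calls the comparison group negative for both markers, whereas the gate in the methods also keeps cells positive for a single marker.

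Adherens junctions join epithelial cells through E-cadherin, the product of Cdh1, which binds its like on the neighbouring cell and holds catenins on the inner side. Tight junctions lie above them and seal the space between cells with claudins, occludin and junctional adhesion molecules, which the scaffold protein ZO-1, the product of Tjp1, links to actin. EpCAM is a surface adhesion protein of most simple epithelia and a partner of claudin-7. Loss of E-cadherin is a classical mark of the epithelial-to-mesenchymal transition (EMT), and Snail, ZEB and Twist proteins are known repressors of its gene. The comparison asked how far the tumor initiating population differed from the remaining tumor cells at the transcript level.

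Total counts ranged from 6781239 to 8450038 in non-TICs and from 8114933 to 9100552 in TICs, so that 3 counts corresponded to 0.330 to 0.442 CPM before normalization. This floor covers counting error only. Genes that averaged 50 to 150 counts in the other 5 samples had 3 counts or fewer in 5.05% to 16.6% of cases per sample, most often in TIC replicate 3. Among genes averaging 800 to 12000 counts, at most 0.0516% did. Mitochondrial transcripts made up 1.93% to 2.91% of counts in non-TICs and 3.21% to 5.01% in TICs. The sorting markers went as follows: Cd24a averaged 468 CPM in non-TICs and 369 CPM in TICs, and Thy1, the gene of CD90, 51.2 and 122 CPM. Both overlapped between the groups, with adjusted p of 0.985 and 0.350 from exactTest. Thy1 had 75.6, 56.5 and 21.5 CPM in non-TICs and 90.3, 206 and 70.1 CPM in TICs. Ptprc, the gene of CD45, had 33 counts in 1 sample of non-TICs and none in the other 5 samples.

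Both groups expressed the junction genes. Cdh1 and Epcam were lower and Cldn1 was higher in every TIC sample, and the groups overlapped in the other 7 genes. None of the 10 genes passed an adjusted p-value of 0.1 in edgeR's exactTest, whereas 1.55% of all expressed genes did, 1.36% higher and 0.189% lower in TICs. At an unadjusted p below 0.05 there was 1 gene, Cdh1, against 7.85% of all expressed genes, 3.11% lower and 4.74% higher. The quasi-likelihood test of edgeR also called 0 of the 10 and DESeq2 called 1, again Cdh1. The fitted log2 fold change, TICs over non-TICs, was below 0 in 8 genes and above 0 in 2, with a median of -0.31. Over all expressed genes 50.3% were below 0 and the median was -0.0061. Scaling to keratin counts (below) put 8 of the 10 genes above 0. That scaling moved the median of all expressed genes to 0.65, still above the median of 0.34 for the 10 genes. Every TIC sample lay below every other sample in 2 genes, Cdh1 and Epcam, and above in 1, Cldn1. Over all expressed genes such a separation occurred in 7.55% downwards and 7.69% upwards. In sorted bulk samples, fewer cells of a type and less RNA per cell cannot be told apart.

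**Figure D1:**
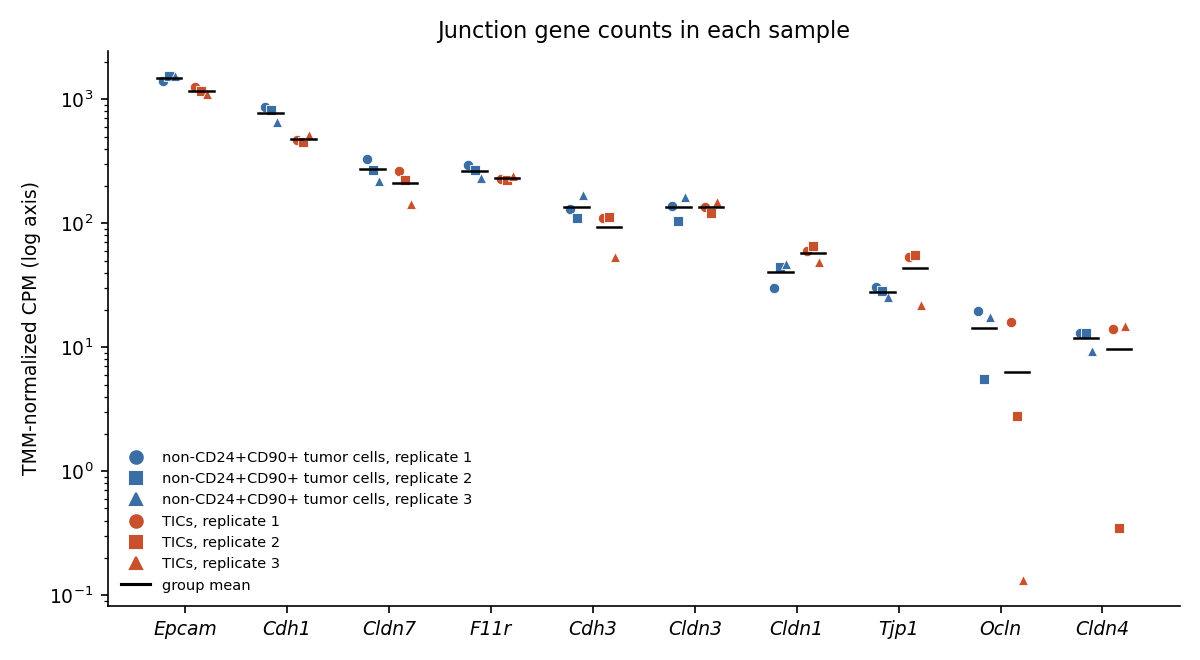
TMM-normalized CPM (log axis) of the 10 junction genes in the 3 samples of non-TICs (blue) and the 3 samples of TICs (red), with marker shapes for replicates 1 to 3 and a black line at the group mean. Epcam and Cdh1 are the most abundant and are lower in all TIC samples, whereas Ocln and Cldn4 each have a TIC sample at or below 0.348 CPM.

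The classical cadherins of epithelium were Cdh1 and Cdh3, the gene of P-cadherin, which in the mammary gland belongs mainly to the basal layer. They are neighbours on the plus strand of chromosome 8 of GRCm38, Cdh3 (ENSMUSG00000061048) at chr8:106510891-106557297 and Cdh1 (ENSMUSG00000000303) at chr8:106603351-106670246, with 46053 bases between them. Cdh1 had 859, 817 and 661 CPM in replicates 1 to 3 of non-TICs and 468, 452 and 510 CPM in TICs. The lowest of the former was thus above the highest of the latter. The means were 779 ± 104 and 476.7 ± 30.0 CPM (SD, n = 3), a difference of -38.8%. The log2 fold change was -0.71 (standard error, SE, 0.27, 95% interval -1.24 to -0.18), with an adjusted p of 0.297 from exactTest. In DESeq2 the adjusted p was 0.0257, and over all other alternatives it ranged from 0.205 to 0.965.

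Cdh3 had 129.7, 110.8 and 168.6 CPM in non-TICs and 110.2, 113.1 and 53.9 CPM in TICs. Its groups overlapped, since TIC replicates 1 and 2 lay at the level of replicate 2 of the other group and only TIC replicate 3 lay apart. This gave a log2 fold change of -0.56 (SE 0.37, adjusted p = 0.884 from exactTest). For each 100 counts of Cdh1 there were 15.1, 13.6 and 25.5 counts of Cdh3 in non-TICs and 23.6, 25 and 10.6 in TICs, so that the balance of the pair did not separate the groups.

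The same libraries also held cadherins of other cells. Cdh2 encodes N-cadherin, Cdh5 the cadherin of endothelium, Cdh11 a cadherin of mesenchymal cells and Cdh13 a cadherin anchored to the membrane without a cytoplasmic tail. Counts were divided by the length of the merged exons, and the share of Cdh1 among these 6 cadherins was taken within each sample, a ratio that does not depend on normalization between samples. Cdh1 held 83.8%, 85.4% and 76.1% in non-TICs and 75.3%, 74.9% and 74.2% in TICs. It was the main cadherin in all 6 samples. The mean difference was -6.96 percentage points, and the groups did not overlap, though by a narrow gap (exact two-sided permutation test, p = 0.1, the smallest that 3 against 3 allows). Cdh2 had 5.81, 13.0 and 8.69 CPM in non-TICs and 5.91, 8.01 and 8.67 CPM in TICs, so that N-cadherin overlapped between the groups.

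The shares of Cdh5, Cdh11 and Cdh13 were 5.25%, 4.29% and 7.33% in TIC replicate 3, where Cdh3 held 8.18%. In the other 5 samples each of these 3 cadherins held at most 2.42%. Cdh11 averaged 12.3 ± 5.13 CPM in non-TICs and 33.7 ± 21.9 CPM in TICs (SD, n = 3), with a log2 fold change of 1.45 (adjusted p = 0.681 from exactTest). For Cdh13 the log2 fold change was 1.64 (adjusted p = 0.520) and for Cdh5 0.98 (adjusted p = 1).

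**Figure D2:**
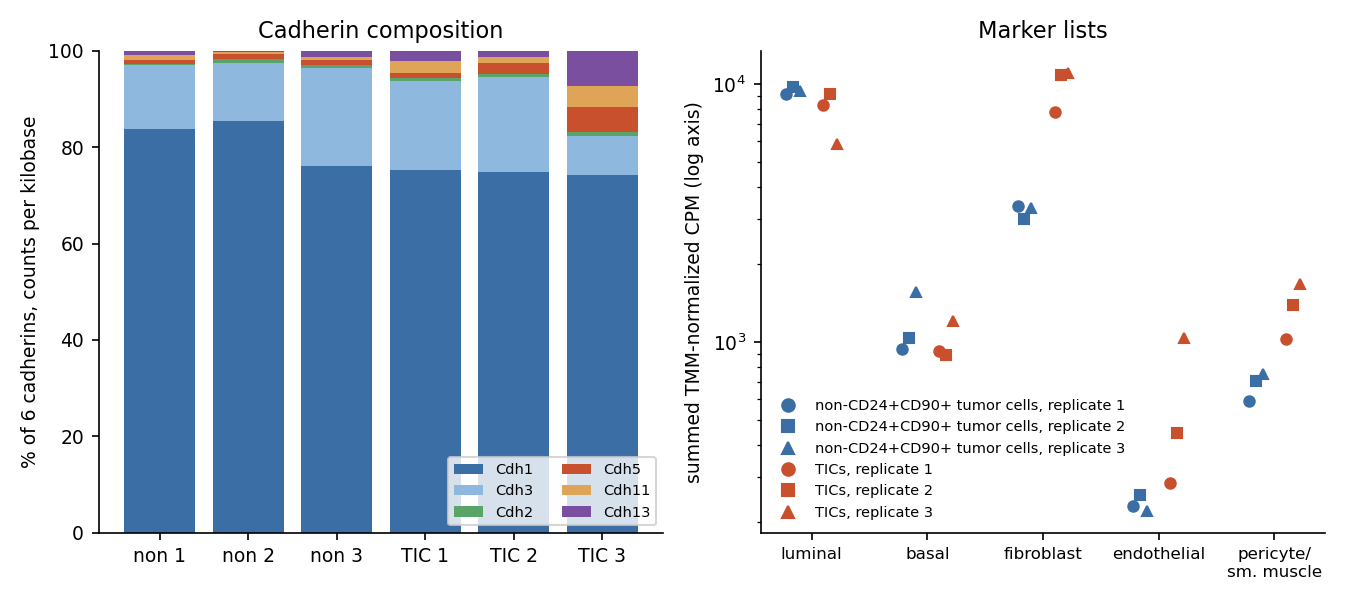
Left, the percentage of 6 cadherins held by each one in every sample, from counts per kilobase of exon, with Cdh1 between 74.2% and 85.4%. Right, the summed TMM-normalized CPM (log axis) of 5 lists of cell type markers in each sample, where the fibroblast and pericyte lists are higher in all TIC samples.

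Epcam (ENSMUSG00000045394, chr17:87635979-87651129, plus strand) was the most abundant of the 10 genes, both in CPM and per length. It had 1392, 1533 and 1541 CPM in non-TICs and 1249, 1169 and 1111 CPM in TICs. All TIC samples were lower, and the spread within the groups was small, with coefficients of variation of 5.63% and 5.89%. In the fit, the log2 fold change came to -0.34 (SE 0.26, 95% interval -0.85 to 0.17, adjusted p = 0.955 from exactTest), and the means differed by -21.0%. There were 61.7, 53.3 and 42.9 counts of Cdh1 per 100 counts of Epcam in non-TICs, and 37.5, 38.7 and 45.9 in TICs. These ranges overlapped.

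Epcam and Cldn1 are the genes whose samples separated in opposite directions and for which a promoter was read from RefSeq (GRCm38.p6), and both are shown as the 250 bases before the start of transcription. The windows lie at chr17:87635729-87635978 on the plus strand and at chr16:26371840-26372089 on the minus strand. Capitals mark CAGGTG and its reverse complement CACCTG, the E-box letters that Snail and ZEB proteins are known to bind.
Epcam: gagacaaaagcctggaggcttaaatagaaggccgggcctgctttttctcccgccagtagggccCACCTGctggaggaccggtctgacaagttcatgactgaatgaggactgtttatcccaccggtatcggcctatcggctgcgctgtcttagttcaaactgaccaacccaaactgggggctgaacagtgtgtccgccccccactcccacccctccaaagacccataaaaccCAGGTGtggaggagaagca
Cldn1: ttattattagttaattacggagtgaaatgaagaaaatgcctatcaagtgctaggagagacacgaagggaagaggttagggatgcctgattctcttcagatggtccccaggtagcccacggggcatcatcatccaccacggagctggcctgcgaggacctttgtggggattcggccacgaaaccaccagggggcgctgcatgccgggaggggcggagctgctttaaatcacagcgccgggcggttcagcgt
The Epcam window held 2 matches, which began 187 and 19 bases before the start, and the Cldn1 window held none. Over all windows in the table, 2.06% held 2 or more. Of the 10 windows read for the junction genes, 3 held 2 matches. These were the window of Epcam and those of the second starts of Cldn7 and Ocln, whose groups overlapped. The pair of Epcam and Cldn1 was picked by its values, and a link between the motif and the direction was not tested. Windows were read for 8 of the 10 genes, not for Cdh1 and Cdh3, and Cldn7 and Ocln have 2 annotated starts each. Of the 10 windows, 5 held the motif on either strand, against 17.2% of the 32851 windows of this length in the table. They belonged to Epcam, Cldn4, F11r and the second starts of Cldn7 and Ocln, and the windows of Ocln overlap each other. Of these genes only Epcam had groups that did not overlap in CPM. Matches of letters do not show binding.

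Claudins form the strands of the tight junction and differ in how tightly they seal it. The 4 claudins of epithelium described here were unequal in level. Cldn7 and Cldn3 reached 140 and 107 CPM per kilobase of exon in non-TICs and 108 and 107 in TICs, whereas Cldn1 and Cldn4 reached 8.38 and 6.51, and 11.9 and 5.36. Cldn3 (ENSMUSG00000070473, chr5:134986214-134987472) and Cldn4 (ENSMUSG00000047501, chr5:134945119-134946934) lie 39279 bases apart on opposite strands. Cldn3 had 138.0, 103.9 and 164.0 CPM in non-TICs and 134.8, 121.7 and 148.8 CPM in TICs. All TIC values lay within the range of the other group. The log2 fold change was -0.0018 (SE 0.32, adjusted p = 1 from exactTest), and its 95% interval from -0.62 to 0.62 still allows a moderate difference in either direction.

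Cldn4 had 12.9, 13.1 and 9.40 CPM in non-TICs and 14.0, 0.348 and 14.9 CPM in TICs. The low value was 3 counts in TIC replicate 2, where the other samples had 66 to 128. Such near-empty values occurred in 10.4% of genes of 50 to 150 counts in that library. With all samples the log2 fold change was -0.28 (SE 1.22), and without TIC replicate 2 it was 0.29. The adjusted p was 1 in both.

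Cldn7 (ENSMUSG00000018569, chr11:69964779-69967885), whose product binds EpCAM, had 329, 269.7 and 219.6 CPM in non-TICs and 265.6, 223.8 and 144 CPM in TICs. The groups overlapped, and TIC replicate 3 was the lowest sample. This gave a log2 fold change of -0.37 (SE 0.32, adjusted p = 0.985 from exactTest). Cldn1 (ENSMUSG00000022512, chr16:26356642-26371841), which encodes a sealing claudin, went the other way. It had 29.9, 44.8 and 47.0 CPM in non-TICs and 59.7, 65.2 and 48.4 CPM in TICs. Every TIC sample was higher, though TIC replicate 3 only just so. In the fit, the log2 fold change came to 0.51 (SE 0.45, 95% interval -0.37 to 1.39, adjusted p = 0.987).

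Together, Cldn3 and Cldn7 held 79.3%, 70.7% and 73.9% of the counts per kilobase of 18 claudins in non-TICs. In TICs the shares were 78.4%, 79.0% and 54.6%. The low share in TIC replicate 3 went with a share of 16.6% for Cldn5, the claudin of endothelium, which held 0.796% to 4.22% elsewhere. Cldn7 held 21% in that library and 34.3% to 48.1% in the others. Cldn22 and Cldn15, chosen after their values were seen, were also highest there, at 40.2 and 18.4 CPM per kilobase. Cldn5 had 8.58, 8.36 and 3.70 CPM in non-TICs and 7.23, 16.03 and 82.9 CPM in TICs, with an adjusted p of 0.351.

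Ocln (ENSMUSG00000021638, chr13:100496507-100552718) encodes occludin, a membrane protein of the tight junction strands. It was scarce and uneven, with 136, 49 and 124 counts in non-TICs and 145, 24 and 1 in TICs. TIC replicate 1 had the most raw counts and TIC replicate 3 the fewest of all samples. In CPM, TIC replicate 1, at 15.9, lay below replicates 1 and 3 of non-TICs, at 19.8 and 17.7. The log2 fold change of -1.19 had an SE of 1.34 and an adjusted p of 1, and its 95% interval reached from -3.81 to 1.43. Without TIC replicate 1 the log2 fold change was -3.25 and without TIC replicate 3 it was -0.60. F11r (ENSMUSG00000038235, chr1:171437535-171464603), the gene of the junctional adhesion molecule JAM-A, had a small spread. It had 294, 267 and 231 CPM in non-TICs and 229, 222.6 and 240.4 CPM in TICs, with a log2 fold change of -0.20 (SE 0.28, adjusted p = 1).

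Tjp1 (ENSMUSG00000030516, chr7:65296165-65527781) had 30.5, 28.5 and 25.4 CPM in non-TICs and 53.9, 55.4 and 21.8 CPM in TICs. TIC replicates 1 and 2 were above and TIC replicate 3 below all other samples. The log2 fold change was 0.64 (SE 0.55, adjusted p = 0.985 from exactTest).

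**Figure D3:**
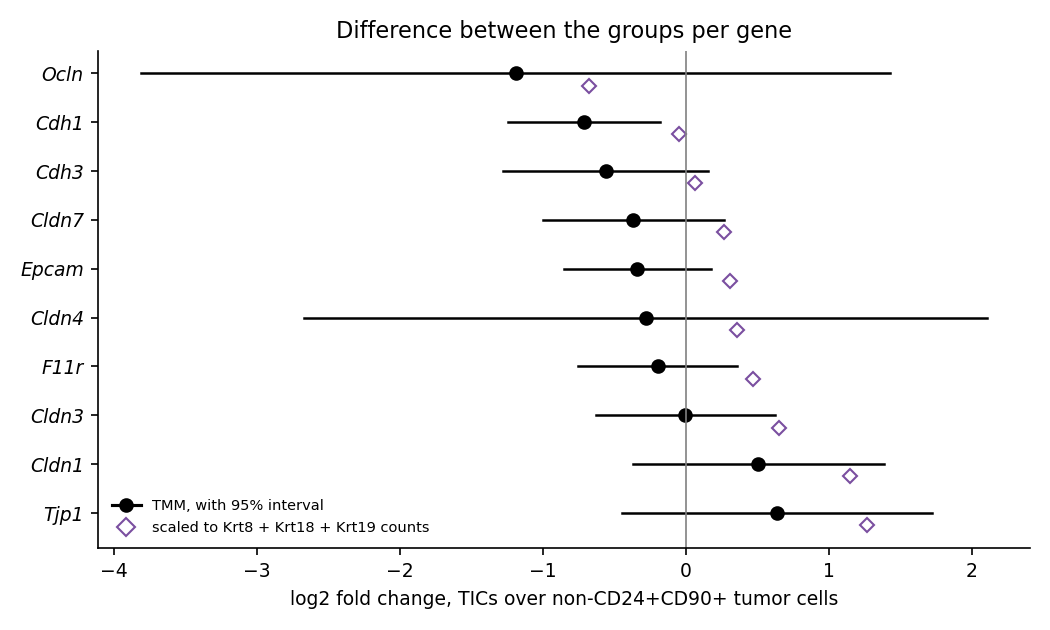
Log2 fold change of each junction gene, TICs over non-TICs. Black points are the TMM-normalized estimates with 95% intervals, and diamonds are estimates after scaling each library to its summed counts of Krt8, Krt18 and Krt19. Cdh1 moves from -0.71 to -0.04 under that scaling and Epcam from -0.34 to 0.31, while the median of all expressed genes moves to 0.65.

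Ordered by level per length, Epcam was first in both groups, at 678 and 536 CPM per kilobase. Cdh1, Cldn7, Cldn3 and F11r followed in non-TICs at 170, 140, 107 and 99.2. In TICs these 4 genes lay between 86.6 and 108, and their order was Cldn7, Cldn3, Cdh1 and F11r. Cdh1 thus ranked 2 in non-TICs and 4 in TICs, where it differed from Cldn3 and Cldn7 by less than the spread between samples. F11r, next below it in TICs, did not overlap it, with 83.6 to 90.3 CPM per kilobase against 98.8 to 111.5 for Cdh1. Cdh3, Cldn1, Cldn4, Tjp1 and Ocln lay at or below 31.1 CPM per kilobase in both groups.

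Summed RNA of the luminal keratins Krt8, Krt18 and Krt19, structural proteins of the same epithelial cells, was lower in every TIC sample, though Krt19 alone overlapped between the groups. Krt18 had a log2 fold change of -0.69 (adjusted p = 0.295 from exactTest) and Krt8 of -0.53 (adjusted p = 0.690). Their summed counts were 3223 to 3430 CPM in non-TICs and 1791 to 2376 CPM in TICs, here per total count. For each 100 counts of Krt18 there were 30.6, 30.8 and 26.6 counts of Cdh1 in non-TICs and 25.8, 29.2 and 32.8 in TICs. Relative to Krt18, Cdh1 therefore did not separate the groups. The other genes of the luminal list overlapped between the groups and did not all fall with the keratins. Their log2 fold changes were 0.03 for Csn3, 0.08 for Muc1, -0.025 for Ltf and -0.25 for Wfdc18. For Krt7, Cd24a and Elf5 they were -0.28, -0.34 and -0.72. Scaling to these genes was not tested. The 10 junction genes together held 0.318% to 0.334% of all counts in non-TICs and 0.215% to 0.261% in TICs. Epcam and Cdh1 made up 66.0% to 73.6% of those counts. Per 100 counts of the 3 keratins, the 10 junction genes together had 94.3, 97.5 and 99.0 counts in non-TICs and 110, 121 and 120 in TICs. With the libraries scaled to the keratins, the median log2 fold change of all expressed genes moved to 0.65 and that of the 10 genes to 0.34, 8 of the 10 estimates were above 0, and still none passed the threshold.

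Summed markers of cells other than epithelium were higher in every TIC sample, except for the erythroid list. Of all expressed genes, 1.36% were called higher. Single genes did not always follow their list. S100b of the Schwann cell list was lower in every TIC sample (log2 fold change -0.72), and Acta2 and Myh11 of the pericyte list overlapped between the groups. The fibroblast list, 10 of 10 genes expressed, summed to 3002 to 3369 CPM in non-TICs and 7792 to 11070 CPM in TICs, and 6 of its genes were called higher. For pericytes and smooth muscle the sums were 592 to 753 and 1022 to 1670 CPM, with 1 of 10 genes called higher, and for endothelium 221 to 254 and 284 to 1039 CPM, with 0 of 11 called. The endothelial list shares Cdh5, Cldn5 and Esam with the junction lists below. The luminal epithelial list of 10 genes spanned 9155 to 9749 CPM in non-TICs and 5864 to 9149 CPM in TICs, and the basal list of 8 genes 937 to 1568 and 893.5 to 1205 CPM. Neither had a called gene. Of the 10 leukocyte genes, Cd3e and Adgre1 had no count in any sample, 5 were expressed and 2, Lyz2 and Cd74, were called higher, with sums of 198 to 233 and 328 to 445 CPM. The other expressed genes, Cd14, S100a8 and Csf1r, overlapped between the groups, with log2 fold changes of -0.0056, 0.18 and -1.7. Of the 7 adipocyte genes, Adipoq, Plin1 and Lep had no count in any sample and Fabp4, also known from endothelium, was called higher, with sums of 238 to 348.5 and 391 to 1698 CPM. Schwann cell genes summed to 199.5 to 296.8 and 318 to 417 CPM with 3 of 5 called higher, and erythroid genes to 26.6 to 99.8 and 15.3 to 165 CPM with 0 of 5 called and Hba-a2 without a count. The luminal list holds Cd24a and the fibroblast list Thy1, the genes of the sorting markers. The part of these cells in the values of Cdh1, Epcam and the claudins was not tested.

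The wider junction machinery was described by 93 further genes in 8 lists, of which 75 were expressed. Of these 75, 2 were called higher and 0 lower in TICs, against 1.36% and 0.189% of all expressed genes, and their median log2 fold change was 0.03. The 11 expressed adherens junction genes had a median of 0.12 and 0 calls. Among them, β-catenin (Ctnnb1), which links cadherins to α-catenin, averaged 41.05 ± 20.03 and 56.8 ± 33.8 CPM, and p120-catenin (Ctnnd1), which holds cadherins at the surface, averaged 17.5 ± 5.43 and 19.99 ± 15.9 CPM (SD, n = 3, non-TICs first). Both adjusted p-values were 1. The 5 other cadherins expressed had a median of 0.98 and the 5 partners of EpCAM a median of -0.12, with 0 calls in either.

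Among the other tight junction genes, the 10 expressed membrane proteins had a median log2 fold change of 0.02, the 23 genes of plaque and polarity -0.07 and the 7 other claudins -0.48, with 0 calls in each list. The TIC samples lay below all others in 2, 4 and 2 of these genes and above in 0, 2 and 0, where all expressed genes gave 7.55% below and 7.69% above. Of the fixed representatives, Cgn, the gene of cingulin, averaged 52.7 ± 11.3 and 41.4 ± 15.2 CPM, and Marveld2, the gene of tricellulin, 22.7 ± 3.02 and 32.1 ± 18.03 CPM (SD, n = 3; adjusted p = 1 for both). The tight junction membrane gene with the smallest p-value was Lsr, chosen after its values were seen, which encodes a protein of contacts between 3 cells. It had 64.0, 99.2 and 122 CPM in non-TICs and 56.5, 40.9 and 17.7 CPM in TICs, a log2 fold change of -1.30 (SE 0.47, adjusted p = 0.248). Cldn2, a pore-forming claudin also chosen after its values were seen, had 72.4, 86.7 and 75.9 CPM and 52.6, 34.7 and 38.6 CPM (adjusted p = 0.497).

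Junctional adhesion molecules of other cells varied more than F11r. Jam2, known from endothelium, had 61, 11 and 44 counts in non-TICs and 0, 289 and 220 in TICs, and Jam3 had 7 counts in each of TIC replicates 1 and 2 and none elsewhere. Esam, an endothelial member of the same family, had 28.8, 52.4 and 36.8 CPM in non-TICs and 45.4, 81.6 and 134 CPM in TICs, a log2 fold change of 1.15 (SE 0.47, adjusted p = 0.380).

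**Figure D4:**
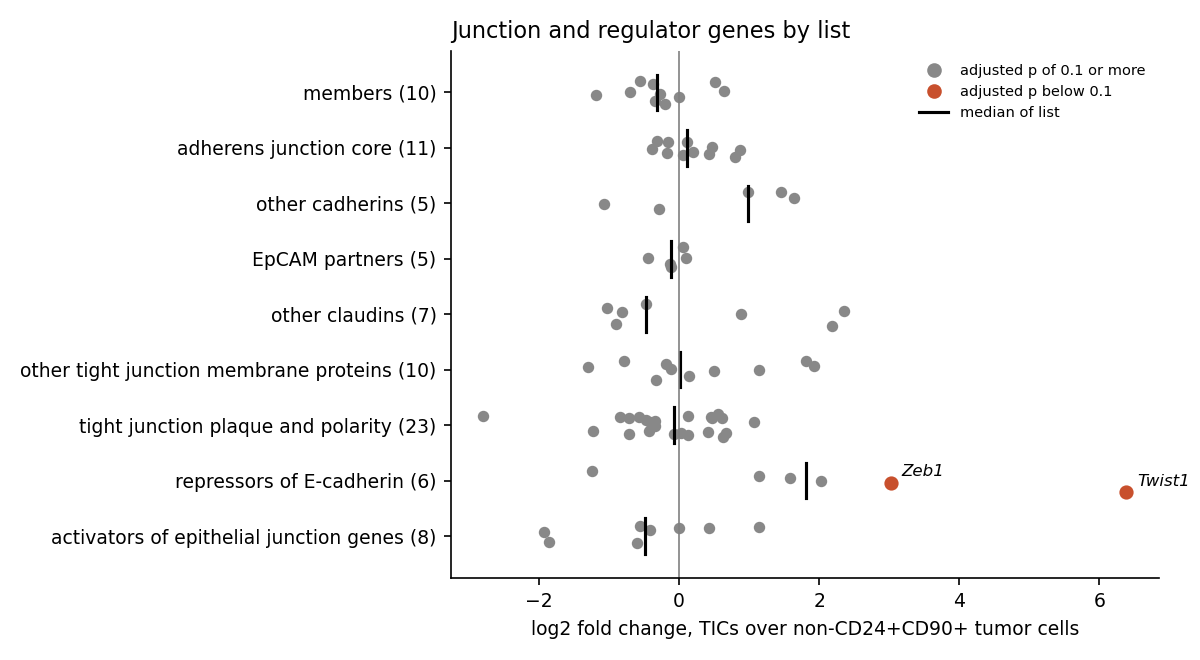
Log2 fold change, TICs over non-TICs, of the 10 junction genes (top row) and of 8 lists of further junction genes and regulators, with the number of expressed genes in brackets and a black line at the list's median. Grey points did not pass an adjusted p of 0.1, and the 2 red points are Zeb1 and Twist1, the latter placed by only 3 counts in the lower group.

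Both called genes stood among the 6 repressors of Cdh1, whose median log2 fold change was 1.81. Zeb1 had 45, 55 and 10 counts in non-TICs and 181, 633 and 171 in TICs (log2 fold change 3.02, SE 0.83, adjusted p = 0.0714 from exactTest). Twist1 had 1, 2 and 0 counts in non-TICs and 95, 136 and 72 in TICs (adjusted p = 0.0922). In both genes every TIC sample was higher. Neither was called by the quasi-likelihood test, at an adjusted p below 0.05, without the filter on low counts, or when TIC replicate 2 or any 1 sample of non-TICs was left out. Zeb2 overlapped between the groups, with 38.8, 46.1 and 8.98 CPM in non-TICs and 14.6, 122 and 145 CPM in TICs (adjusted p = 0.493). Snai2, the gene of Slug, was lower in every TIC sample, with 29.7, 43.2 and 61.7 CPM in non-TICs and 16.9, 24.3 and 15.8 CPM in TICs (log2 fold change -1.24, adjusted p = 0.542).

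Activators of epithelial genes had 8 expressed genes of 11, 0 calls and a median log2 fold change of -0.49. Grhl2, a transcription factor that sustains Cdh1 and claudin genes, had 141, 103 and 145 CPM in non-TICs and 123, 172 and 93.6 CPM in TICs, with a log2 fold change of -0.0037 (adjusted p = 1). Esrp1, an epithelial splicing regulator, had 156, 149 and 129 CPM and 104, 88.8 and 92.4 CPM. Its TIC samples were all lower, with a log2 fold change of -0.61 (SE 0.31, adjusted p = 0.642). Ovol1, an epithelial repressor of Zeb1, had 189 counts in TIC replicate 2, none in the other TIC samples and 9 to 40 counts in non-TICs.

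Profiles over the 6 samples were compared by Pearson's r of log2 CPM among 6755 other genes of at least 20 CPM on average, as a description. The 5 genes most like Cdh1 were Galnt7, Ier2, Rps6ka3, Bri3bp and Gde1, with r from 0.977 to 0.997. Galnt7, an enzyme of O-linked glycosylation, averaged 89.8 CPM in non-TICs and 35.3 CPM in TICs and was itself called (adjusted p = 0.0885). The genes most like Epcam were Arhgap35, Arhgef16, Ube3c and Mboat2, each with r of 0.986. Mboat2, an acyltransferase of membrane lipids, averaged 63.1 and 17.1 CPM and was the only called gene of these 4 (adjusted p = 0.0651). The points share their libraries and the 2 groups, and no test was made of these coefficients.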

How the data were processed

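RNA-seq covered 3 TIC and 3 non-TIC samples, grouped by the sample descriptions and numbered in accession order. The deposited values are raw counts per Ensembl gene. Per the methods and processing notes, the authors used Trimmomatic 0.32 for trimming and STAR 2.4.0 for alignment to GRCm38, removed reads that did not map uniquely with SAMtools 1.1 and counted with HTSeq. Unique mapping can lower the counts of genes with near-identical copies. Strand and annotation release are not given in the sources used here. Symbols, coordinates and merged exon lengths came from GENCODE M21 on GRCm38, in which 40254 genes matched. Cldn25 was left out because its symbol was found only as a synonym of Cldnd1, which is not the claudin listed, and Pals1 was read as Mpp5.

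The filter required over 1 CPM in 3 or more samples. Counts were normalized by TMM and tested with exactTest of edgeR 4.0.16 (R 4.3.3), tagwise dispersions, with Benjamini-Hochberg adjustment over all 12192 genes and a threshold of 0.1, as in the study. The biological coefficient of variation from the common dispersion was 0.823. From the tagwise dispersions used in the test it was 0.222 for Epcam, 0.230 for Cdh1 and 1.13 for Ocln. Standard errors came from the negative binomial fit, and 95% intervals are normal intervals from them. CPM values are TMM-normalized. The scripts were tested on simulated counts. The alternatives included the quasi-likelihood test and DESeq2 1.42.0. Samples are pools of sorts. The sources used here do not state whether both groups were sorted from the same mice, and the tests treated the groups as unpaired.

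The genes, lists and tests were chosen with earlier results of these data known. The text names all 10 genes, every called gene of the 8 lists, fixed representatives, the sorting markers and the 5 genes most like Cdh1 and Epcam. Of the genes this rule selects, 3 are not reported here. Any other gene is named as chosen afterwards or to describe a list of markers.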

Additional observations from a re-analysis of the deposited data

How the results depend on the processing

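No paired analysis was possible because the labels give the groups no shared replicate numbers. The count of junction genes called was 0 under all alternatives except DESeq2, which called 1 (Cdh1). The count over all expressed genes, 189, was 50 with the quasi-likelihood test, 306 with DESeq2, 1109 with keratin scaling, 112 without a filter and 116 at an adjusted p below 0.05, and 72 to 323 with single samples left out (87, 90 and 72 without non-TIC replicates 1, 2 and 3, 323 and 102 without TIC replicates 1 and 2). The 2 calls among further junction genes became 0 with the quasi-likelihood test, without a filter or at 0.05, 1 with library size alone and 14 with keratin scaling, and 0 to 6 with single samples left out (6 without TIC replicate 1). The difference in cadherin share stayed between -9.79 and -5.14 percentage points with single samples left out and was -10.7 in raw counts.

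Keratin scaling moved the median log2 fold change of all expressed genes to 0.65. Without a change of sign, it moved Cdh1 to -0.04, Ocln to -0.68, Cldn1 to 1.15 and Tjp1 to 1.27. It turned the log2 fold changes of Cdh3 (0.064), Epcam (0.31), Cldn3 (0.65), Cldn4 (0.36), Cldn7 (0.27) and F11r (0.47) above 0. Cldn3, at -0.0018, also changed sign with DESeq2 (0.026), RLE factors (0.026), no filter (0.0093), 10 counts in every sample (0.037) and without replicates 1 (0.022) or 3 (0.16) of non-TICs or TIC replicates 1 (0.014) or 2 (0.071). Cldn4 changed sign without TIC replicate 2 (0.29). With single samples left out, Cldn3 spanned -0.159 to 0.16 and Cldn4 -0.697 to 0.29. Other shifts of over 1.5 times were Ocln without TIC replicates 1 (-3.25) or 3 (-0.60), Cdh3 without TIC replicate 3 (-0.27), Cldn7 without TIC replicate 3 (-0.14) or non-TIC replicate 1 (-0.20), Tjp1 without TIC replicate 3 (0.98) and F11r without non-TIC replicate 1 (-0.0998), none of them called. Requiring 10 counts in every sample removed Cldn4 and Ocln from the test. The causes of the other changes were not tested. No group held enough samples for an outlier test. Cldn4 and Ocln had under 150 counts in every sample, and their intervals were wide. Near-empty values were the 3 counts of Cldn4 in TIC replicate 2 and the 1 count of Ocln in TIC replicate 3.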
